A study of Mus musculus with 12 samples.

Results

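The 59 genes described here are the nuclear genes for subunits of respiratory chain complexes I to IV and for cytochrome c, taken by symbol from a fixed list out of 55487 genes in the deposited kidney table. All 59 were found and all 59 passed the count filter. They comprised 34 genes of complex I, 4 of complex II, 9 of complex III, 1 for cytochrome c and 11 of complex IV. Ndufa4 was placed with complex IV, to which its protein belongs in spite of its name. The table comes from bulk sequencing of kidney messenger RNA in male mice with XLAS, X-linked Alport syndrome. The titles name Col4a5, the X-linked type IV collagen gene affected in this disease. All mice were of the B6 background and 30 weeks old. They received either a control diet or a diet with fisetin, a plant flavonol, at 500 ppm. There were 6 libraries per diet, with 3 of each diet in each of the 2 batches that the labels name. Every library came from a diseased kidney, so no comparison with healthy kidney was made. The genotype field reads HET although the design describes males, and no allele status was used.

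The respiratory chain sits in the inner mitochondrial membrane. Complex I oxidises NADH and complex II oxidises succinate, and both pass the electrons to ubiquinone. Complex III hands them to cytochrome c, and complex IV passes them to oxygen. Complexes I, III and IV pump protons, and ATP synthase uses the resulting gradient. In the kidney the proximal tubule and the thick ascending limb are rich in mitochondria, because salt and solute transport uses much ATP.

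Control libraries held 18638748 to 22396857 counts and fisetin libraries 16310214 to 24451821. Whether each library is a separate animal is not stated, so the p-values speak only for the spread among these libraries, which may be technical. Markers of proximal tubule (24 of 24 genes), thick ascending limb (10 of 10), podocyte (8 of 8) and endothelium (8 of 8) passed the count filter. No marker of these lists was at 0. Fat genes were uneven between libraries. The mean log2 CPM of 7 adipocyte genes was 5.32 in fisetin 5 and 4.95 in control 3, and 4.01 or below in the other libraries. Ucp1, the uncoupling protein of brown fat, had 1748 counts in fisetin 5, 608 in control 3 and 18 to 236 in the others. The part of fat in the values below was not tested directly, and values without fisetin 5 are given where they differ.

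A promoter window is printed for 1 gene of each complex, the window with most motif matches among genes chosen by role or by their p for diet. The windows show the stretch around the start of transcription of each printed gene. RefSeq (GRCm38.p6) gave windows from 250 bases before to 50 bases after the start of transcription for 49 of the 59 genes, 51 windows in all. The palindromic motif of nuclear respiratory factor 1 was in 9.8% of these windows and in 1.27% of all 32851 windows. The ETS motif CCGGAAG, the kind bound by nuclear respiratory factor 2 (GABP), was in 21.57% and 8.86%. The motif of YY1, a zinc finger factor, was in 7.84% and 0.79%. Both strands were searched, the motifs do not overlap in the windows shown, and at least 1 of the 3 was in 37.25% of member windows and 10.51% of all windows. Capitals mark the matches. The Ndufs4 window (chr13:114388045-114388344, minus strand) held 1 YY1 match. The Sdhd window (chr9:50603800-50604099, minus strand) held 1 match to the nuclear respiratory factor 1 motif and, further on, 1 ETS match. The Uqcrc1 window (chr9:108936398-108936697, plus strand) held 1 match to the nuclear respiratory factor 1 motif, and the Cox8a window (chr19:7217567-7217866, minus strand) held 2 ETS matches. A match describes the letters and does not show that a factor was bound. The set of all windows was not limited to genes tested here or matched for base content, so the shares are a description.
Ndufs4: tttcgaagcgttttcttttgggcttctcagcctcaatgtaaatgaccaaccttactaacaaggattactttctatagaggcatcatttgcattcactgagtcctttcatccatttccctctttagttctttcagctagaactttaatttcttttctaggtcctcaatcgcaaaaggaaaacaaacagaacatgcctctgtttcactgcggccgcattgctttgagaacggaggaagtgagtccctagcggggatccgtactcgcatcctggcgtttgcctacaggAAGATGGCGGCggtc
Sdhd: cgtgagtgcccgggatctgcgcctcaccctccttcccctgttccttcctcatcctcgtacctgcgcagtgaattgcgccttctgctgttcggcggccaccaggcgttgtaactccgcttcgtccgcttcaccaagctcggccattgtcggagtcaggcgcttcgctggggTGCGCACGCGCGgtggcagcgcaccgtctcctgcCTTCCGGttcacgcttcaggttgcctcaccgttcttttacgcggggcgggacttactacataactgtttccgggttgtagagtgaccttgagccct
Uqcrc1: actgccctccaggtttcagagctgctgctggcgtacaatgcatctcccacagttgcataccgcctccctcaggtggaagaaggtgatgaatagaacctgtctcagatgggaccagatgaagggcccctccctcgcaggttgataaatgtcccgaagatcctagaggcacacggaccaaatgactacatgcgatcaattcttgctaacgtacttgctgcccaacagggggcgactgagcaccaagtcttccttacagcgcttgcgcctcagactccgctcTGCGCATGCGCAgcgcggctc
Cox8a: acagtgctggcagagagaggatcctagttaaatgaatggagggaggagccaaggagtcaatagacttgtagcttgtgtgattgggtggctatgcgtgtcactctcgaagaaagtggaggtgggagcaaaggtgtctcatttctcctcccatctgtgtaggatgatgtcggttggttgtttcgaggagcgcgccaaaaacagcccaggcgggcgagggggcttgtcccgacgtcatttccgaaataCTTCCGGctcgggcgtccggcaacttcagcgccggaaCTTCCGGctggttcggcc

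Median message levels rose from complex I to complex IV when compared per transcript length, in TPM, a transcript abundance scaled to a fixed total per library. The median of the mean TPM was 94.6 over the 34 genes of complex I, 114 over the 4 of complex II, 270 over the 9 of complex III and 424 over the 11 of complex IV. Cycs, the gene for cytochrome c, was below each of these medians at 41.5 ± 6.3 TPM (SD, n = 12 libraries). In log2 CPM, without length scaling, complex II (control mean 7.79) lay above complex III (7.20) and complex IV (7.73). Within complex I the mean ran from 27.8 ± 3.5 TPM for Ndufs4, an accessory subunit needed for a stable NADH-oxidising end, to 238 ± 35 TPM for Ndufa1, a small subunit of the membrane arm. The 2 core subunits that carry the entering electrons, Ndufv1, which binds NADH, and Ndufs1, an iron-sulfur protein, stood at 89.9 ± 11.7 and 58.6 ± 8.1 TPM. In complex II, Sdha, the flavoprotein that oxidises succinate, was at 162 ± 29 TPM. Its partners Sdhb, an iron-sulfur protein, Sdhc and Sdhd, both membrane anchors, were between 102 and 117 TPM on average.

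In complex III the core protein Uqcrc2 was lowest, at 89.1 ± 14.0 TPM, and the small subunit Uqcrq highest, at 345 ± 46 TPM. The subunits that carry electrons, Cyc1 (cytochrome c1) and the Rieske iron-sulfur protein Uqcrfs1, were at 109 ± 16 and 126 ± 20 TPM. In complex IV the mean ran from 109 ± 14 TPM for Cox7b to 935 ± 129 TPM for Cox6c, with Cox8a at 933 ± 130 TPM. The order of Cox6c and Cox8a lies within their spread. The lowest count of any member in any library was 333, so counting error was small for all of them. Rn7s1 and Rn7s2, genes for the RNA of the signal recognition particle, took 40.3% to 53.1% of all TPM, so TPM values of messages are low by that share and move with it.

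**Figure D1:**
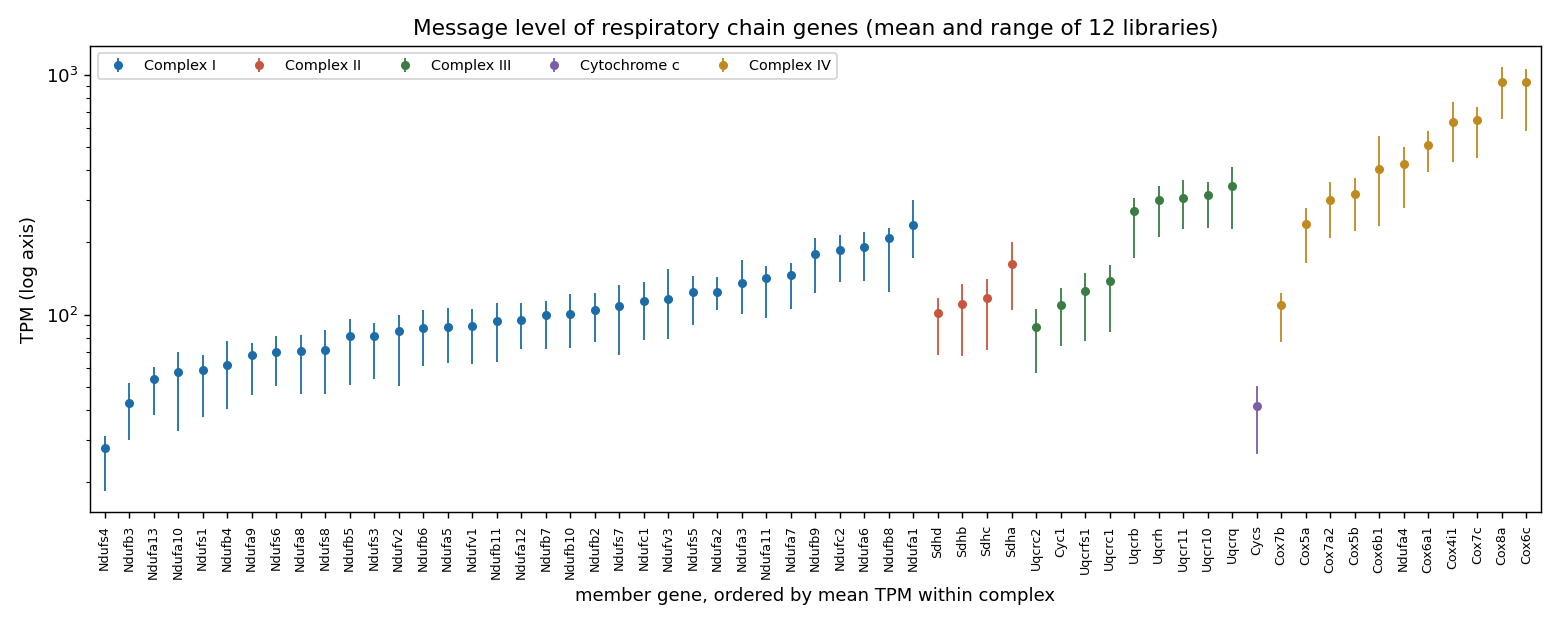
Mean message level in TPM (log axis) of each of the 59 genes over 12 libraries, grouped by complex, with bars for the lowest and highest library. Ndufs4 is lowest at 27.8 TPM and Cox6c highest at 935 TPM.

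The main question was whether the chain's messages differed between the diets. Their means were slightly lower with fisetin in nearly every case, and no single gene passed the test. Of the 59 genes, 0 had an adjusted p under 0.05 in edgeR's quasi-likelihood fit with batch and diet, where 0% of the 17890 genes tested passed. The lowest adjusted p among members was 0.303. At an unadjusted p under 0.05, 6 members were lower and 0 higher, against 1135 (6.34%) of the 17890 genes lower and 1473 higher. The log2 fold change (fisetin over control) was below 0 for 58 of 59 members, against 49.8% of all genes. It was below 0 for 57 with scaling by total count and for 51 on the log2(TPM + 1) scale. The 49.8% is that of the main fit and was not taken from these scales. Its median was -0.16 over the members and 0.00080 over all genes tested. On the log2(TPM + 1) scale the median over the members was -0.059. Against the main fit, that scale moved the median over all genes tested by 0.054, and scaling by total count moved it by 0.044. For 0 of 59 members did every fisetin library lie below every control library, against 0.425% of all genes.

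The complexes had similar medians. The median log2 fold change was -0.16 for complex I (33 of 34 below 0), -0.13 for complex II (4 of 4), -0.16 for complex III (9 of 9) and -0.17 for complex IV (11 of 11). That of Cycs was -0.08. Differences between complexes were not tested. The members' values share libraries and move together, so the count below 0 is not a count of independent observations. Each gene's correlation with the mean of the other 58 members over the 12 libraries ran from 0.64 (Ndufb6) to 0.99, with a median of 0.94.

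A score per library, the mean log2 CPM of a complex's genes, where CPM is the count scaled to library size by TMM, shows the same order of the diets. The score of complex I had a mean of 6.10 ± 0.14 (SD, n = 6) with the control diet and 5.93 ± 0.20 with fisetin (n = 6). Control libraries ran from 5.92 through a median of 6.11 to 6.25, and fisetin libraries from 5.70 through 5.90 to 6.23. The ranges overlapped over most of their length, with fisetin 1, fisetin 2 and fisetin 5 below every control and fisetin 6 near the top. For complex IV the means were 7.73 ± 0.14 and 7.56 ± 0.20, with ranges of 7.56 to 7.88 and 7.30 to 7.84. Complex III stood at 7.20 ± 0.15 and 7.04 ± 0.19, and complex II at 7.79 ± 0.20 and 7.66 ± 0.19. Within batches 1 and 2 the difference, fisetin minus control, was -0.15 and -0.18 for complex I, -0.10 and -0.16 for complex II, -0.16 and -0.16 for complex III and -0.14 and -0.20 for complex IV. The 4 complexes kept their direction in both batches, while Cycs did not, with 0.07 in batch 1 and -0.24 in batch 2, and its interaction of diet with batch did not pass (adjusted p = 1.00). Each difference was smaller than or near 1 SD of the libraries within a diet.

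**Figure D2:**
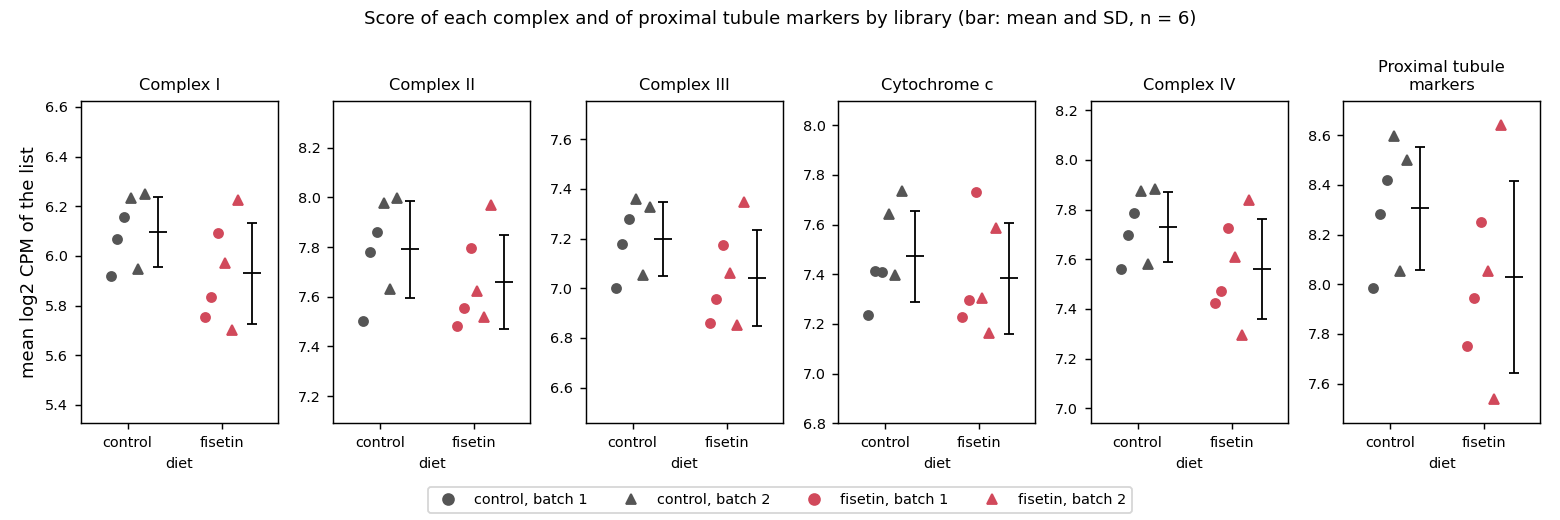
Mean log2 CPM of the genes of each complex, of Cycs and of 24 proximal tubule markers in every library, by diet, with circles for batch 1 and triangles for batch 2 and with bars for the mean and SD of 6 libraries. All vertical axes span the same number of log2 units, and the diets overlap in every panel, as for complex I with 5.92 to 6.25 in controls and 5.70 to 6.23 with fisetin.

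Within complex I the members with the lowest unadjusted p were small accessory subunits. Ndufb2, a subunit of the membrane arm, had 44.5, 50.1 and 59.2 CPM as lowest, median and highest of the control libraries and 38.0, 43.7 and 49.9 CPM with fisetin. All 6 fisetin libraries lay below the control mean of 51.2 ± 5.0 CPM, although 3 lay within the control range. Its log2 fold change was -0.22 (SE 0.08, adjusted p = 0.303). Ndufa3, also of the membrane arm, had means of 26.9 ± 3.5 and 22.9 ± 2.5 CPM (n = 6 each, log2 fold change -0.23, SE 0.10, adjusted p = 0.319). Ndufb3 had means of 32.5 ± 3.4 and 28.1 ± 3.6 CPM (log2 fold change -0.20, SE 0.09, adjusted p = 0.334). In all, 6 of 59 members had every fisetin library below the control mean, 5 of them in complex I and 1 in complex IV, against 6.98% of all genes.

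The widest difference in complex I was that of Ndufv3 (chr17:31520115-31531331, plus strand, GRCm38), an accessory subunit at the NADH-oxidising end. Control libraries had 55.4 CPM at the lowest, 70.6 at the median and 79.2 at the highest, and fisetin libraries 41.1, 52.8 and 75.2. Its log2 fold change was -0.31 with an SE of 0.14 (adjusted p = 0.347). Fisetin 6, at 75.2 CPM, lay among the highest controls. The only member with a higher mean in the fisetin group was Ndufb6, a membrane arm subunit, with means of 47.5 ± 2.7 CPM in controls and 48.5 ± 7.0 CPM with fisetin. Its log2 fold change was 0.031 with an SE of 0.089, and it turned below 0 without fisetin 3 (-0.016) or fisetin 6 (-0.031). Of the electron-carrying core, Ndufs1 had a log2 fold change of -0.12 (SE 0.10, adjusted p = 0.565) and Ndufv1 of -0.17 (SE 0.10, adjusted p = 0.393). Ndufs4 had means of 45.6 ± 4.0 and 43.2 ± 5.2 CPM, and its log2 fold change of -0.08 (SE 0.09) turned to 0.017 on the log2(TPM + 1) scale. Over all 6 core subunits among the members the median was -0.17 and all were below 0.

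The 4 genes of complex II, which also serves in the citric acid cycle, differed little. Sdha had 414, 550 and 622 CPM as lowest, median and highest of the controls and 414, 459 and 592 CPM with fisetin, so the lowest library of each diet had nearly the same level. Its log2 fold change was -0.16 (SE 0.11, adjusted p = 0.475). Sdhb, Sdhc and Sdhd had log2 fold changes of -0.13 (SE 0.11), -0.11 (SE 0.10) and -0.14 (SE 0.09), with adjusted p from 0.446 to 0.604.

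In complex III the largest difference was that of Uqcr11, a small subunit, with 66.6, 75.6 and 85.6 CPM in controls and 49.5, 67.0 and 86.1 CPM with fisetin. Its log2 fold change was -0.20 (SE 0.12, adjusted p = 0.424), and the highest library of all was fisetin 6. Uqcrq and Uqcrb, which lie with the ubiquinone-binding part, had smaller errors, at -0.15 (SE 0.07, adjusted p = 0.349) and -0.16 (SE 0.08, adjusted p = 0.371). Uqcr10, another small subunit, was at -0.20 (SE 0.10, adjusted p = 0.373). The core proteins Uqcrc1 and Uqcrc2 were at -0.13 (SE 0.09) and -0.18 (SE 0.11), Cyc1 at -0.18 (SE 0.10) and Uqcrfs1 at -0.12 (SE 0.11). Uqcrh, the hinge protein that helps cytochrome c bind, differed least, with means of 115 ± 10 and 113 ± 12 CPM and a log2 fold change of -0.028 (SE 0.08) that was above 0 with scaling by total count (0.013) and on the log2(TPM + 1) scale (0.078).

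Cycs had means of 179 ± 23 CPM in controls and 169 ± 27 CPM with fisetin (log2 fold change -0.08, SE 0.11, adjusted p = 0.735). Fisetin 3, at 213 CPM, stood far above the other 2 fisetin libraries of its batch, at 150 and 157 CPM.

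In complex IV, Cox6a1, the widely expressed form of a subunit that also has a heart and muscle form, had the lowest p. Its controls had 194 CPM at the lowest, 234 at the median and 252 at the highest, and its fisetin libraries 164, 197 and 247. The log2 fold change was -0.23 (SE 0.10, adjusted p = 0.326). Cox8a, a small subunit spanning the membrane, had means of 384 ± 41 and 330 ± 45 CPM, and all 6 fisetin libraries lay below the control mean (log2 fold change -0.22, SE 0.10, adjusted p = 0.341). Cox5b, on the matrix side, was at -0.18 (SE 0.09, adjusted p = 0.374) and Cox7b, whose gene is X-linked, at -0.17 (SE 0.09, adjusted p = 0.380). Cox4i1, the larger regulatory subunit, had means of 459 ± 57 and 407 ± 69 CPM (log2 fold change -0.17, SE 0.11). Cox6c, Cox7a2 and Cox5a were among the closest to 0, at -0.12 (SE 0.10), -0.11 (SE 0.10) and -0.11 (SE 0.08). Ndufa4 was at -0.18 (SE 0.13, adjusted p = 0.476).

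Members passed in a limma-voom fit that weights libraries and not in the same fit without weights. With limma-voom quality weights, which give libraries that fit the model poorly less say, 27 of 59 members fell with fisetin, 16 in complex I, 1 in complex II, 5 in complex III and 5 in complex IV, against 6.9% of all genes that fell. The lowest adjusted p was 0.0263. That fit gave weights of 0.36 to fisetin 6, 0.41 to fisetin 5 and 0.58 to control 1, and of 2.97 to fisetin 2. Without the weights, a fit added after seeing the data, limma-voom called 0 of 59 members and 0% of all genes (lowest adjusted p 0.306), and 8 members were lower at an unadjusted p under 0.05, against 6.95% of all genes. DESeq2 called 0 of 59 members, where 0.358% of all genes fell. In edgeR 0 members passed when any 1 library was left out. The number of members lower at an unadjusted p under 0.05 was 35 without fisetin 6, where 12.4% of all genes were lower at that threshold, and 23 without fisetin 3, where 8.87% were. It was 19 without control 5 (7.64% of all genes) and 13 without control 1 (8.1%). It was 4 without fisetin 4 (6.03%) and 0 without control 6 (4.12%). It was 1 without control 2 (4.13%), control 3 (4.64%), control 4 (3.9%), fisetin 1 (3.97%), fisetin 2 (4.8%) or fisetin 5 (4.25%). The median log2 fold change ran from -0.11 without fisetin 5 to -0.22 without fisetin 6.

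Across libraries the members followed the markers of the proximal tubule. A proximal tubule score was formed as the mean log2 CPM of 24 genes, none of which codes for a mitochondrial protein. Most are genes for transporters and receptors, such as Lrp2, Slc34a1 and Slc5a2. The list also holds Hnf4a, Pdzk1, Anpep and Ggt1. Controls had a score of 8.31 ± 0.25 (n = 6) and fisetin libraries 8.03 ± 0.39 (n = 6), a difference of -0.28 (-0.25 and -0.31 in batches 1 and 2, two-sided exact permutation p = 0.185, adjusted p = 0.481 over 13 marker lists). Without fisetin 6 the difference was -0.42 (exact permutation p = 0.045), and without fisetin 5 it was -0.14 (exact permutation p = 0.41). Fisetin 5 was lowest at 7.54, then fisetin 1 at 7.75, and fisetin 6 was highest at 8.64, followed by control 4 at 8.60. In whole tissue a lower score may come from fewer proximal tubule cells or from less of these RNAs per cell, which cannot be told apart.

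With this score as a further term beside batch and diet, all 59 members had a positive slope with an adjusted p under 0.05 in edgeR, against 19.4% of the 17890 genes tested. A negative slope passed for 0 members and 17% of all genes. The slope is the log2 change of a gene per 1 log2 unit of the score. Its median was 0.52 over members and -0.016 over all genes tested. The proximal tubule markers had a median of 0.88, but they make up the score, so their slopes are tied to it by construction. By complex the medians were 0.53 for complex I, 0.56 for complex II, 0.52 for complex III and 0.51 for complex IV, with 0.52 for Cycs. Adjusted p ran from 1.14e-07 to 0.0165. The count was 55 of 59 without fisetin 5, 58 without control 1 or fisetin 6 and 59 without any other library. It was 55 with scaling by total count, which lowered the median slope to 0.42. With the immune score as a further term it was also 55, at a median slope of 0.58. The 19.4% of all genes is that of the main fit and was not taken from these settings.

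**Figure D3:**
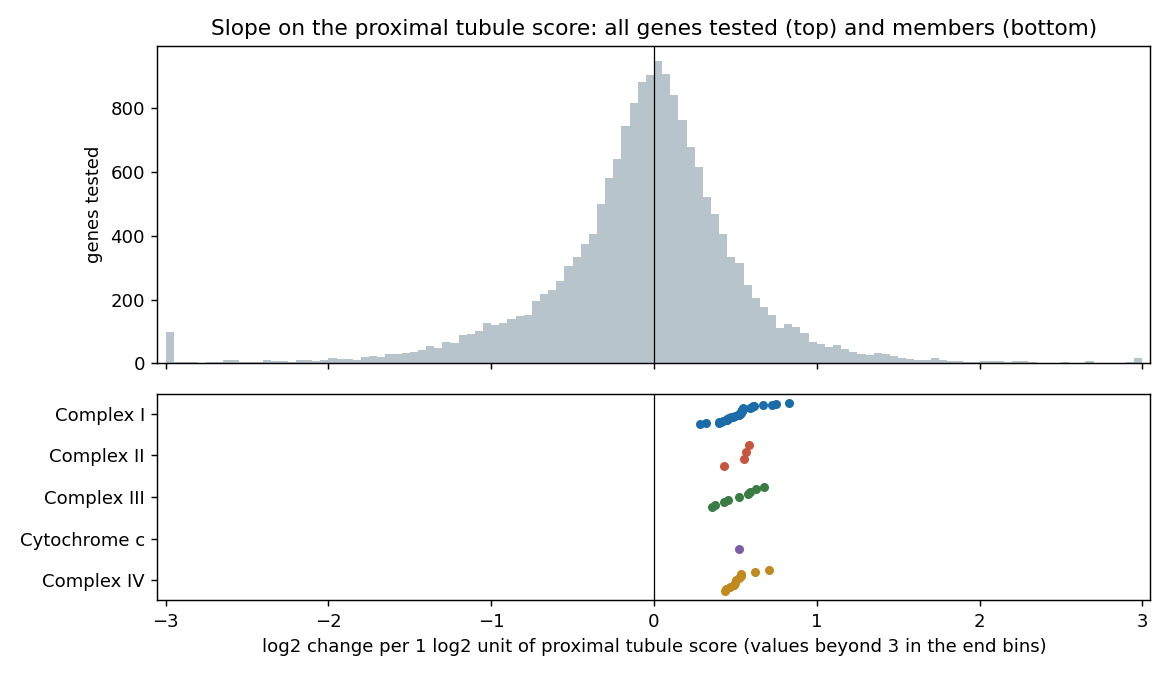
Slope on the proximal tubule score, as log2 change per 1 log2 unit, for all 17890 genes tested (histogram, top) and for the members of each complex (points, bottom, spread vertically for clarity). All 59 members lie between 0.29 and 0.83, to the right of the middle of the histogram near -0.016.

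The slopes differed among members of the same complex. Ndufv3 had the steepest, 0.83 (SE 0.06, adjusted p = 1.14e-07), close to the median of the markers. Its level rose from 41.1 CPM in fisetin 5, the library with the lowest score, to 75.2 CPM in fisetin 6, which had the highest. Ndufa1 had a slope of 0.73 (SE 0.08). In complex IV the steepest was Ndufa4, 0.70 (SE 0.07), followed by Cox4i1, 0.62 (SE 0.06, adjusted p = 1.11e-06). In complex III the steepest was Uqcr11, 0.68 (SE 0.08), followed by Uqcrc2, 0.63 (SE 0.06). In complex II the membrane anchor Sdhc had 0.58 (SE 0.06) and its partner Sdhd 0.43 (SE 0.08). The shallowest slopes were those of Ndufa11, at 0.29 (SE 0.09, adjusted p = 0.0165), Ndufa7, at 0.32 (SE 0.08), Uqcrq, at 0.36 (SE 0.07), and Uqcrh, at 0.37 (SE 0.07). Ndufb6, whose means were nearly equal between diets, had a slope of 0.41 (SE 0.09, adjusted p = 0.0027). Differences between slopes were not tested.

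As a description, the score of the 59 members correlated with the proximal tubule score at Pearson's r = 0.98 (Spearman's rho 0.97) over the 12 libraries. It was 0.99 in each batch, 0.99 within controls and 0.98 within fisetin libraries. Without fisetin 5 and fisetin 6, the 2 libraries farthest from the median, it was 0.99. By complex r was 0.98 for complex I, 0.94 for complex II, 0.99 for complex III and 0.98 for complex IV. Cycs was looser at 0.83, with 0.64 in batch 1. Both scores come from the same libraries and the same scaling. In complex II the lowest score was that of fisetin 1, at 7.48, and not that of fisetin 5, at 7.52, and without fisetin 5 its r was 0.98.

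**Figure D4:**
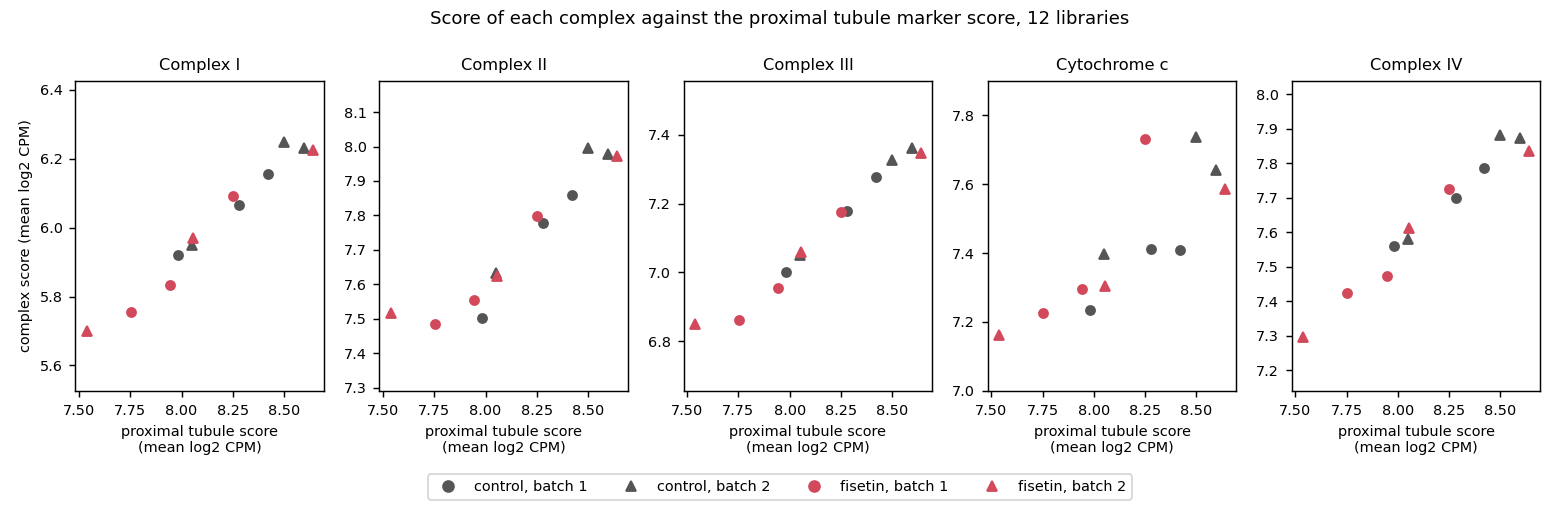
Score of each complex and of Cycs against the proximal tubule score (both mean log2 CPM) for 12 libraries, coloured by diet, with circles for batch 1 and triangles for batch 2. For complexes I, III and IV both diets lie along a single line (r = 0.98 to 0.99), with fisetin 5 at the lower left and fisetin 6 at the upper right, while Cycs scatters more (r = 0.83).

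With the proximal tubule score held in the fit, the values for diet lay near 0. That score had r = 0.985 with the member score and itself differed by -0.28 between the diets. Diet values nearer 0 therefore follow from that relation, and the fit cannot separate diet from the score. The median log2 fold change for diet was -0.018 over the members and -0.0019 over all genes tested. It was below 0 for 41 of 59 members, against 50.7% of all genes, and 0 members passed, against 0.201% of all genes. Values ran from -0.11 (SE 0.05) for Ndufb2 to 0.13 (SE 0.06, adjusted p = 0.41) for Ndufb6. By complex the medians were -0.023 for complex I, 0.0099 for complex II, -0.033 for complex III and -0.011 for complex IV, with 0.059 for Cycs. Ndufv3 went from -0.31 to -0.09 (SE 0.04, adjusted p = 0.386), Cox6a1 from -0.23 to -0.09 (SE 0.05, adjusted p = 0.481) and Sdha from -0.16 to -0.002 (SE 0.05, adjusted p = 0.994). The median SE for diet over the members was 0.10 without the score and 0.05 with it. Without fisetin 6 the median turned to 0.0056, with 33 members above 0. An immune score in its place gave a median of -0.033 and a thick limb score -0.049, with 0 members called by either.

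**Figure D5:**
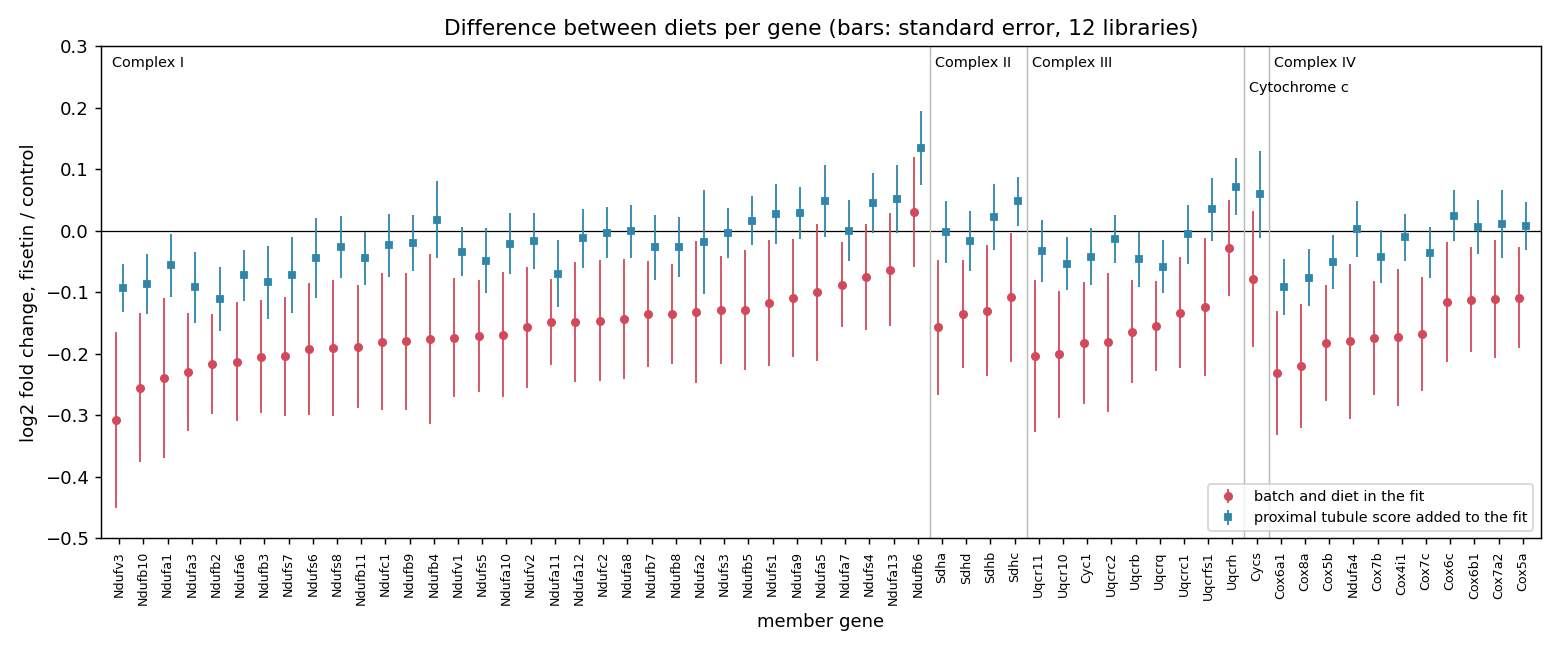
Log2 fold change, fisetin over control, of each of the 59 genes with its standard error, from the fit with batch and diet (circles) and from the fit that also holds the proximal tubule score (squares). The circles lie below 0 for 58 genes with TMM scaling (51 on the log2(TPM + 1) scale) at a median of -0.16, and the squares lie around 0 at a median of -0.018. The score held for the squares moves with the members and was itself lower with fisetin, so squares nearer 0 follow from that relation.

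Counts near 59 came from most lists of tubule cells and also from endothelial and, with negative slopes, fibroblast markers. They were lower for principal cell, podocyte, injured tubule and immune markers. The thick ascending limb score moved with the proximal tubule score (r = 0.95), and in its place it gave a positive slope past the threshold for 58 of 59 members, against 18.6% of all genes. Markers of segment 3 of the proximal tubule gave 59 of 59 (18.5% of all genes), those of the distal convoluted and connecting tubule 58 (17.8%) and those of intercalated cells 59 (18.1%). Endothelial markers gave 56 (15.5%), principal cell markers 40 (9.17%) and podocyte markers 38 (9.11%). Slopes past the threshold on the other lists were all negative, with 58 members for fibroblast and myofibroblast markers (15.1% of all genes), 25 for injured tubule markers (4.97%) and 12 for immune markers (6.24%). Over 12 libraries the member score had r = 0.96 with the thick limb score, -0.84 with the fibroblast score, -0.76 with the immune score and -0.34 with the adipocyte score. Which of these contents the members follow was not tested, since the lists move together.

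None of the 13 marker lists differed between the diets after adjustment over the lists. The principal cell score was lower with fisetin by -0.65 (two-sided exact permutation p = 0.005, the smallest these arrangements allow, adjusted p = 0.065), and the immune score was higher by 0.71 (exact permutation p = 0.095, adjusted p = 0.412). The score of proximal tubule segment 3 was lower by -0.69 (exact permutation p = 0.065, adjusted p = 0.412), and that of the distal convoluted and connecting tubule by -0.35 (exact permutation p = 0.145, adjusted p = 0.471). The thick limb score differed by -0.27 (exact permutation p = 0.31), and the other 7 lists had exact permutation p from 0.365 to 1. Their part in the members' values by diet was not tested beyond the immune and thick limb terms given above.

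Batch did not move the members past the threshold. The batch term passed for 0 of 59 members and 0% of all genes, and the interaction of diet with batch for 0 of 59 and 0%. Means were higher in batch 2 for 56 of 59 members, against 9035 of 17890 genes tested. The members had a median log2 difference of 0.09 and a lowest adjusted p of 0.892.

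Genes that work beside the chain were described in the same way. Of all genes tested, 19.4% rose with the proximal tubule score and 17% fell, while 49.8% were below 0 for diet and 0% were called. ATP synthase, fed by the proton gradient, had a negative log2 fold change for diet in 15 of 16 genes and 0 called, and 16 of 16 rose with the proximal tubule score at a median slope of 0.57. The subunit Atp5j2 had the lowest p for diet among them (log2 fold change -0.19, SE 0.07, adjusted p = 0.304). In the citric acid cycle and pyruvate dehydrogenase, 16 of 16 genes were below 0 for diet with 0 called, and 13 of 16 rose with the score, with a median slope of 0.41 over all 16. Idh3g and Mdh2 had log2 fold changes for diet of -0.17 (SE 0.10) and -0.15 (SE 0.08). Among assembly factors 39 of 47 were below 0 for diet with 0 called, and 29 of 47 rose with the score, with a median slope of 0.38 over all 47. Cox14 and Pet117, both needed to build complex IV, had log2 fold changes of -0.17 (SE 0.06, adjusted p = 0.303) and -1.16 (SE 0.35, adjusted p = 0.276), the latter at only 1.43 ± 0.20 and 0.64 ± 0.39 CPM.

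The 13 subunit genes of the mitochondrial genome, which complete complexes I, III, IV and ATP synthase, had 10 that rose with the score. Of all genes 19.4% rose. Their median slope, over all 13, was 0.85, above every complex median of the nuclear genes. For diet 11 of 13 were below 0 and 0 passed, against 49.8% and 0% of all genes. Cytochrome b (mt-Cytb) had a diet value of -0.12 (SE 0.16) and mt-Atp6 of -0.21 (SE 0.14, adjusted p = 0.45).

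Regulators of mitochondrial content were mixed. With the proximal tubule score 9 of 16 rose and 1 fell, against 19.4% and 17% of all genes. Ppargc1a, the coactivator PGC-1alpha, rose with a slope of 0.80 (SE 0.09) and Esrra, its partner receptor, with 0.64 (SE 0.06). Tfam, which packages and transcribes mitochondrial DNA, had a shallower slope of 0.35 (SE 0.10, adjusted p = 0.009). Gabpb1, a subunit of nuclear respiratory factor 2, was the gene that fell, at -0.30 (SE 0.11, adjusted p = 0.0388). For diet 0 of 16 passed, with log2 fold changes of -0.13 (SE 0.15) for Ppargc1a, -0.16 (SE 0.11) for Esrra, 0.01 (SE 0.08) for Tfam, 0.17 (SE 0.08, adjusted p = 0.337) for Gabpb1 and 0.13 (SE 0.07) for Sirt1, a deacetylase that acts on PGC-1alpha.

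Of 6 isoforms and relatives outside the list that were tested, 1 rose with the proximal tubule score, against 19.4% of all genes. It was the acyl carrier protein Ndufab1, at 0.48 (SE 0.08). Cox7a2l, which helps join complexes III and IV, had a slope of 0.060 (SE 0.07, adjusted p = 0.539), and its diet value was 0.10 (SE 0.04, adjusted p = 0.328). Cox8b, the form of muscle and brown fat, ran from 0.26 to 18.4 CPM among the fisetin libraries and 0.60 to 10.8 CPM among the controls.

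Some members share reads or bases with other genes, and how such reads were counted is not given. A near-identical gene took reads amounting to 35.9% of the sum for Ndufb4, and 4 such genes 26.1% for Cycs, so the levels of both are uncertain. Ndufb4 had a slope of 0.75 (SE 0.10) and a diet value of -0.18 (SE 0.14). For the other members with a near-identical copy this share was at most 0.531%. Exon bases of 17 members overlap another protein-coding gene, mostly on the opposite strand, among them Ndufb2, Ndufb6, Ndufs1, Cox4i1 and Cox6c. Reads from such pairs cannot be told apart if strand was not used.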

How the data were processed

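Libraries were prepared from kidney RNA with the KAPA mRNA HyperPrep kit, per the labels' protocols. The submitters' processing notes list the tools fastp, STAR, featureCounts and DESeq2 without their roles, and GRCm38 or mm10 as build. Versions, annotation and counting options are not given. Per the file headers, each library has an estimated count, a TPM and an FPKM column. The deposited estimated counts carry no depth scaling. They were rounded here, as 13.91% of those above 0 had a fraction (tolerance 1e-06). The authors scaled TPM to a fixed total, and TPM served here for levels. The deposited FPKM values were not used further. Each of 36 value columns matched 1 sample by its name. Depth was 16310214 to 24451821 counts per library. No library was a copy of another, since the 66 pairs differed by 6.84 to 101 times the counting noise over 16473 genes.

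With filterByExpr (minimum count 10) 17890 genes remained. TMM-scaled counts were fitted in edgeR 4.0.16 under R 4.3.3 (glmQLFit, robust, and glmQLFTest, two-sided) with batch and diet. P-values were adjusted over all genes by Benjamini-Hochberg, threshold 0.05. Standard errors were derived from each fold change and its F statistic. A list's score is the mean log2 CPM of its genes (prior count 2). Marker scores were compared over all 400 arrangements of diet within batches (smallest p 0.005), and the score of proximal tubule markers was added to the fit as a term. Alternatives were DESeq2 1.42.0, limma-voom 3.58.1 with quality weights and without, log2(TPM + 1) with limma, other scalings and filters, other covariates and leaving out each library. The fits were tested on simulated counts. Copies of members were sought with BLAST 2.17.0 (95% identity over 300 bases or 50% of the transcript) in GENCODE M21 transcripts. Libraries are numbered in accession order within a diet, which pairs nothing.

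The members, gene lists and named genes were chosen with earlier results of these data known. Genes named are those fixed by role, the 3 with the lowest p and the extremes by diet in each complex, the 2 with the lowest p for the proximal tubule term, the highest and lowest TPM, and 2 genes of each other list. Ndufa7, Ndufa11, Ndufb4, Cox8b and Esrrb were named after their values were seen.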

Additional observations from a re-analysis of the deposited data

How the results depend on the processing

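The count of all genes called for diet was 0 and became 36 with the proximal tubule score or the thick limb score in the fit, 154 with DESeq2, 2390 with quality weights (0 in limma-voom without them) and 1 in batch 1 alone, and ran from 0 to 70 when each library was left out, with 70 without fisetin 6. At an unadjusted p under 0.05, 1473 genes were higher and 1135 lower in the edgeR fit. The members called for diet were 0 and became 27 with quality weights. The median slope of members was 0.52 and became 0.29 with markers of segment 3 and 0.42 with total count scaling. The difference in proximal tubule score ran from -0.42 without fisetin 6 to -0.14 without fisetin 5 when each library was left out. The correlation with that score became 0.69 for Cycs and 0.97 for complex IV with total count scaling, and ran from 0.931 to 0.975 for complex II and 0.983 to 0.994 for complex III over libraries left out, the upper ends without fisetin 5. The cause of these shifts was not tested. For the 32 named members, 800 values for diet were recomputed under 25 alternatives, of which 747 kept their direction and side of the threshold, 16 passed it with quality weights and 37 changed sign, none of these past the threshold. Changed log2 fold changes were as follows. With the proximal tubule score in the fit they were Ndufs1 0.027, Ndufs4 0.0449, Sdhb 0.0218, Sdhc 0.0478, Uqcrfs1 0.0349, Uqcrh 0.0716, Cycs 0.0591, Cox5a 0.00818, Cox6c 0.0244, Cox7a2 0.0106, Ndufa4 0.00227. With the immune score they were Ndufs1 0.0281, Ndufs4 0.0312, Sdha 0.00484, Sdhb 0.00675, Sdhc 0.035, Uqcrfs1 0.0205, Uqcrh 0.0557, Cycs 0.0423, Cox6c 0.0174. With the thick limb score, added after seeing the data, they were Ndufs1 0.00212, Ndufs4 0.0239, Sdhc 0.0148, Uqcrh 0.045, Cycs 0.035, Cox6c 0.00122. On the log2(TPM + 1) scale they were Ndufs4 0.0174, Uqcrq 0.0032, Uqcrh 0.0777. Uqcrh was 0.0133 with total count scaling and Cycs 0.0815 in batch 1 alone. The median over all genes tested moved by 0.054 on the log2(TPM + 1) scale and by 0.044 with total count scaling. Ndufb6 was -0.0239 with quality weights and -0.0125 in batch 2 alone. With each library left out in turn, Ndufb6 ran from -0.0314 to 0.0941 and Uqcrh from -0.086 to 0.0142. No paired analysis was possible because the replicate numbers were given in accession order and pair no samples. Leaving each library out of the fit with the proximal tubule score, also added after seeing the data, called 0 members for diet in every case. Depth limited no member, since the lowest count was 333.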

Other observations

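Of 49 genes of the cytosolic ribosome tested, 14 fell with the proximal tubule score and 0 rose, against 17% and 19.4% of all genes. The median slope over all 49 was -0.16, and their score had r = -0.72 with the proximal tubule score over 12 libraries, as a description. Rps4x had a slope of -0.33 (SE 0.06). For diet 0 of 49 passed, with 15 below 0 (49.8% of all genes), among them Rpl38 at -0.11 (SE 0.06). Esrrb, an estrogen-related receptor, had the steepest slope of the regulators, 1.80 (SE 0.18), at 9.13 to 22.9 CPM in controls and 4.53 to 20.8 CPM with fisetin, and its log2 fold change for diet was -0.44 (SE 0.31, adjusted p = 0.479).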
